A study of Mus musculus with 30 samples.

Results

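The respiratory chain subunit genes are the nuclear genes that encode the building blocks of the 5 complexes of oxidative phosphorylation. They were taken here as the genes whose symbols start with Ndufa, Ndufb, Ndufc, Ndufs, Ndufv, Sdh, Uqcr, Cox4 to Cox8 or Atp5. Ndufa4l2 and the assembly factors were left out, and a probe set had to be paired with exactly 1 gene. This gave 81 genes of the 18194 genes measured, each read from its brightest probe set. By complex, 35 belong to complex I, 4 to complex II, 8 to complex III, 17 to complex IV and 17 to complex V. A gene entered the tests where 3 or more of the 30 arrays exceeded 4 (log2 signal), which was so for 75 of the 81 and for 11243 of all genes. The prefixes take in a few genes that regulate or associate with a complex, such as Cox7a2l, which takes part in joining complexes III and IV. Complexes were assigned by prefix. All counts and medians by complex therefore hold Ndufa4, now placed in complex IV, under complex I and Cox7a2l under complex IV.

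Electrons from nutrient breakdown enter the chain at complex I (NADH dehydrogenase) and complex II (succinate dehydrogenase). They pass through complex III (cytochrome bc1) to complex IV (cytochrome c oxidase), which hands them to oxygen, and ATP synthase, complex V, uses the resulting proton gradient to make ATP. Brain endothelial cells are known for a high content of mitochondria, and their barrier transport spends ATP. Complex I, III, IV and V subunits are encoded by both the nuclear and the mitochondrial genome, and those of complex II by the nuclear genome alone.

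RNA of brain microvascular fragments, short pieces of vessel that carry endothelial cells with attached mural cells and astrocyte remnants, was measured on 30 Affymetrix arrays. The first model bears on the retention motif of platelet-derived growth factor B (PDGF-B), the endothelial signal that recruits pericytes. Its controls were pdgfbret/+ mice (4 arrays, at 8, 8, 8 and 10 months) and its mutants pdgfbret/ret mice (4 arrays, at 10, 7, 7 and 7 months), both C57/B6/J. Control and mutant ages therefore differ, the controls already carry 1 altered allele, and no brain region is named. In the second model all mice carried 1 R26P allele, a human PDGF-B transgene at the Rosa26 locus that Cre recombinase turns on, on a C57/SV129 mixed background. Its controls were R26P+/0, pdgfb+/+ without Cre, and its mutants were Tie2Cre, R26P+/0, pdgfb-/-, in which Tie2-driven Cre, active in endothelium and blood cells, makes the transgene the remaining source of PDGF-B. Cerebrum and cerebellum were measured in each (4 arrays per genotype and region), with an age of 1 year in the sample titles and 2 months in the characteristics. Wild-type mice (C57/B6/J, Notch3+/+, 2 months, 3 arrays per region) completed the series. Both sexes are present in each group, and the labels call the samples biological replicates.

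Wild-type arrays had been normalized apart from the 24 arrays of the models, as shown by a lowest value of 2.17 against 2.16 on the log2 scale, and were compared only between their own regions. Mouse Pdgfb, deleted in the R26P mutants, was 4.73 to 8.01 on their arrays and 12.05 to 12.86 on the R26P controls, and 11.70 to 12.51 on all ret arrays, whose alteration does not remove the transcript. The mean log2 level of 15 pericyte markers was 9.76 to 10.16 in ret controls and 6.55 to 7.52 in ret mutants. Of the 14 pericyte markers tested, 13 fell in ret mutants and 14 in R26P mutants in either region. Of 9 astrocyte markers tested, 6 fell in ret mutants and 8 in R26P cerebrum. Over 10 such markers the mean was 8.42 to 8.92 in ret controls and 7.52 to 8.01 in ret mutants. For R26P cerebrum it was 8.82 to 9.05 on controls and 6.92 to 7.41 on mutants. Endothelial markers were 12.69 to 13.54 and neuronal markers 3.15 to 5.10 on all arrays. Xist goes against the sex labels of all 4 ret controls. The pituitary hormone gene Gh was above 8 on 9 arrays, among them ret mutants 1, 2 and 4. The cerebellar gene Gabra6 was 2.21 on R26P mutant cerebellum 3 and 2.39 on the cerebrum of the same number, against 2.93 to 4.98 on all other cerebellar arrays, so the region labels of that pair are not settled. In such bulk RNA, fewer cells of a type and less RNA per cell cannot be told apart.

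Most subunit genes gave strong signals: 72 of the 81 averaged above 6 on the log2 scale and 41 averaged above 12. Signals of different probe sets depend on their probes, so brightest and dimmest below describe probe signals, not transcript levels. The brightest probe set of complex I belonged to Ndufa1, an accessory subunit of the membrane arm, at 13.69 to 14.44 over the 30 arrays. The dimmest tested was that of Ndufs5 at 6.88 to 9.0. For complex II these were Sdha, the flavin-carrying catalytic subunit, at 12.52 to 13.40, and Sdhc, a membrane anchor, at 9.70 to 10.74. In complex III, Uqcrb, a subunit near the ubiquinone site, lay at 15.53 to 16.03 and Uqcr10, a small subunit, at 9.51 to 10.59. In complex V, Atp5g3, one of 3 genes for the same c-ring protein, lay at 14.08 to 14.67 and its paralog Atp5g1 at 9.20 to 10.86. The spread over all arrays was thus below 1 log2 unit for Ndufa1, Sdha, Uqcrb and Atp5g3 and above 1.5 for Ndufs5 and Atp5g1. These ranges pool the wild-type arrays, normalized apart, with the others, so they take in any difference between the 2 normalizations.

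In complex IV, Cox5b, which binds zinc, lay at 14.25 to 14.99, while Cox6b2, the testis form of Cox6b, lay at 2.39 to 5.83. The 6 members that were not tested were Cox4i2, the lung form of subunit IV that is also known from pericytes, Cox6a2, the heart and muscle form, Cox7b2 and Cox8c, both known from testis, and Ndufb1 and Ndufb4 of complex I. Cox4i2, Cox7b2 and Ndufb4 did not leave 2.16 to 2.17, Cox8c reached 2.34, Ndufb1 2.61 and Cox6a2 3.25. A probe set at the lowest value shows only that it gave no signal. Ndufs6, Ndufa11 and Cox7b were not analysed here. Of the 81 probe sets, 19 carry a suffix that marks possible matches to other genes, and small subunits with many pseudogenes may share signal in that way.

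To set the complexes side by side, each member above 6 was expressed as its log2 deviation from its own mean, within each normalization, and averaged per array. Complex I stood at −0.04 ± 0.08 (SD, n = 4) in ret controls and −0.11 ± 0.11 (n = 4) in ret mutants, complex IV at −0.02 ± 0.14 and −0.0040 ± 0.04, and complex V at −0.09 ± 0.09 and −0.05 ± 0.11. These differences are within the spread of the arrays. In R26P control cerebellum the complexes I to V stood at 0.17 ± 0.12, 0.19 ± 0.17, 0.19 ± 0.16, 0.12 ± 0.15 and 0.18 ± 0.17 (n = 4 each). In R26P mutant cerebellum they stood at 0.06 ± 0.08, 0.10 ± 0.13, 0.09 ± 0.09, 0.03 ± 0.06 and 0.08 ± 0.06. All 5 complexes thus had their highest R26P mean in control cerebellum, where the SDs were also the largest of these groups, at 0.12 to 0.17. In wild type the cerebellar means were 0.02 to 0.05 and the cerebral means −0.05 to −0.02.

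**Figure D1:**
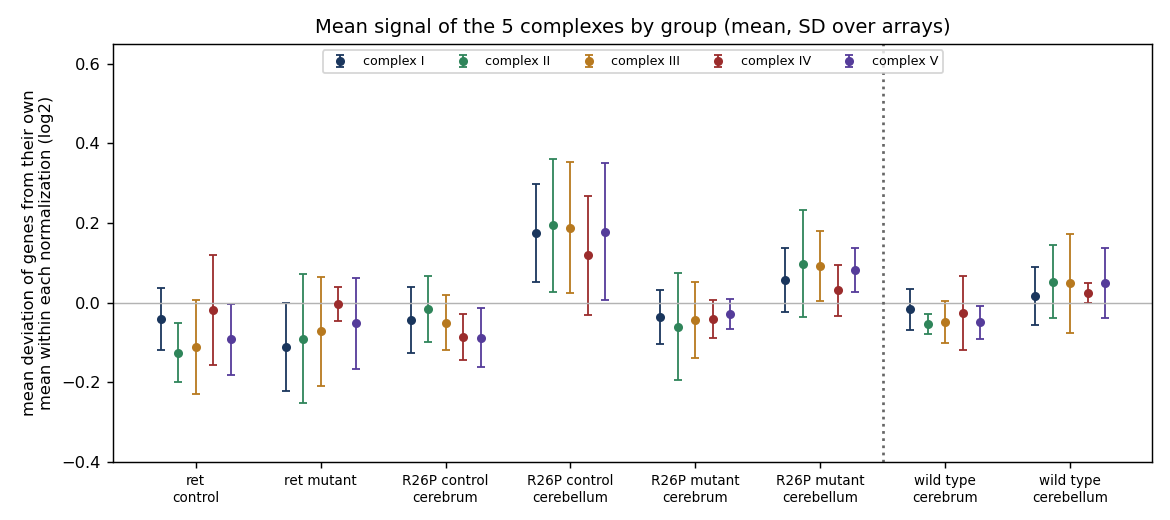
Mean log2 deviation from their own mean of the members of each complex that averaged above 6, by group. Points are group means and bars the SD over arrays (4 per group, 3 in wild type, right of the dotted line, normalized separately). The R26P control cerebellum is the highest R26P group in all 5 complexes, from 0.12 to 0.19.

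The members varied little within groups and moved together. After removal of the group means, the median SD of the 72 members above 6 was 0.131, against 0.198 for all 11243 genes and 0.149 for 2066 other genes with the members' middle range of signal (10.98 to 13.41). The median correlation of these deviations between pairs of members over the 30 arrays was 0.413, and 0.0701 between pairs of the other genes of that range. It was 0.530 within complex III, 0.443 within complex V, 0.419 within complex I, 0.340 within complex II and 0.278 within complex IV. These are descriptions without a test, since the genes share the same arrays, amplification and normalization.

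The promoters of the members were also looked at for motifs of the factors known to control them. A link between these motifs and the shared movement of the members was not tested. Windows from 250 bases before to 50 bases after the start were taken from RefSeq (GRCm38.p6), where 67 of the 81 genes matched, and both strands were searched. The core GCGCNTGCG of NRF1, an activator of respiratory genes, was in 20 of 67 members (29.9%) and in 6.59% of all 27025 promoters. The ETS motif CCGGAAG, bound by GABP, was in 16 (23.9%) against 9.12% of all. The YY1 motif AAGATGG was in 9 (13.4%) against 6.47%, and the nuclear receptor site AAGGTCA, bound by estrogen-related receptors, in 8 (11.9%) against 4.66%. These promoters were also rich in CpG, with a median of 19 CpG per window against 7 over all promoters, which raises the chance of GC-rich matches. Part of such windows is shown for 4 genes that recur in the results, with motif matches in capitals. Ndufa8 is the member with the lowest adjusted p of all, Cox6a1 and Cox7a2 are the widely used forms of their subunits and Cox7a1 is the muscle form that Cox7a2 replaces elsewhere.
Ndufa8, chr2:36049339-36049538, minus strand: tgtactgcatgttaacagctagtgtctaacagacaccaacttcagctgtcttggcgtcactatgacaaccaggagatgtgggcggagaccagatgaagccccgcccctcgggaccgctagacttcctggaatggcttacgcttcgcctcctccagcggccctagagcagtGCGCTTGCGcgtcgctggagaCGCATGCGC
Cox6a1, chr5:115348959-115349158, minus strand: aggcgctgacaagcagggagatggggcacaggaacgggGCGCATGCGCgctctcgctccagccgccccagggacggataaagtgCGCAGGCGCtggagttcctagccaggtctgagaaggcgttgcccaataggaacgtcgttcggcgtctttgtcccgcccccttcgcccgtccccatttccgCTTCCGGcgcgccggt
Cox7a2, chr9:79759854-79760053, minus strand: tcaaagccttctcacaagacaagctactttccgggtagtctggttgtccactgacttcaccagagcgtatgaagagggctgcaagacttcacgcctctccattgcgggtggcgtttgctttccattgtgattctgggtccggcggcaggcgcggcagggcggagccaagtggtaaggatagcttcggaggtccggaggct
Cox7a1, chr7:30183971-30184170, plus strand: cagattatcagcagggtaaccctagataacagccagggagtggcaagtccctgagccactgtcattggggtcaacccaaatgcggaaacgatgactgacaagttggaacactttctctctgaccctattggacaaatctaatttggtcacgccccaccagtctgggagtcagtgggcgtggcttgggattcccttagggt
The Ndufa8 stretch holds 2 NRF1 cores and 14 CpG. The Cox6a1 stretch holds 3 NRF1 cores, of which a pair overlaps on a palindrome, 1 ETS motif and 23 CpG. Neither Cox7a gene has a match to the 4 motifs in the stretch shown, which holds 12 CpG in Cox7a2 and 4 in Cox7a1. A match is a description of the letters, and a missing match says nothing about a factor.

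In ret mutants the respiratory chain as a whole stayed near the control level, and 2 accessory subunits of complex I, Ndufa8 and Ndufa5, fell. Ndufa8, a twin CX9C protein of the intermembrane face, was 12.69, 12.52, 12.63 and 12.66 on the 4 controls and 12.09, 12.27, 12.19 and 12.27 on the 4 mutants. All mutant arrays were below all controls. The log2 change was −0.42 (SE 0.07), a fall of 1.34-fold (limma, adjusted p = 0.0079). Ndufa5, a subunit of the matrix arm, was 11.43, 11.74, 11.46 and 11.52 on the controls and 11.06, 11.18, 11.24 and 11.22 on the mutants, again without overlap. Its change was −0.36 (SE 0.09), 1.28-fold lower (limma, adjusted p = 0.0293). The second probe set of Ndufa5 gave −0.24 with an adjusted p of 0.1891 over all probe sets, and the Ndufa5 call was lost in 5 of the 8 fits that left out 1 array (control 2 or 4 or mutant 1, 2 or 3), with an adjusted p of up to 0.0702. Without the 3 mutants with Gh above 8, which leaves 1 mutant array assumed to vary like the controls, Ndufa8 changed by −0.43 (adjusted p = 0.0825) and Ndufa5 by −0.29 (adjusted p = 0.3111).

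The 2 falls are 2.67% of the 75 members tested, and no member rose. Over all genes 16.6% passed the same threshold, an adjusted p under 0.05 in limma. The median log2 change was −0.0076 over the members and 0.013 over all genes, and 33 members were above 0 and 42 below. Complex I had a median of −0.03, with 11 of 33 above 0. Among its accessory subunits 7 of 27 were above 0, and among the 6 core subunits, which carry the electron path, 4 were above 0. Medians were 0.016 in complex II, 0.013 in complex III, −0.0029 in complex IV and 0.041 in complex V. The 3 c-ring genes Atp5g1, Atp5g2 and Atp5g3 lay above 0 (median 0.22), but none of them passed the test.

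A few members of complex I, chosen after their values were seen, came close to the threshold in ret mutants. Ndufa13, a small subunit also known as GRIM-19, was 13.81, 13.93, 13.82 and 13.83 on controls and 13.24, 13.50, 13.33 and 13.75 on mutants, without overlap. Its change was −0.39 (SE 0.11, limma adjusted p = 0.0558). Ndufb8, a membrane-arm subunit, changed by −0.26 (adjusted p = 0.0648), also without overlap. Without ret mutant 4, both passed the test (−0.49 and −0.31), beside Ndufa5 and Ndufa8, which made 4 calls. Both also passed in limma after median centring (adjusted p = 0.0330 and 0.0332) and after renewed quantile normalization (adjusted p = 0.0354 and 0.0373). Ndufa13 passed as well with an intensity trend and robust prior (adjusted p = 0.0374) and, narrowly, among genes averaging above 6. Neither passed without the filter, with probe sets averaged per gene or with the replicate number as a block. Without ret mutant 1, Atp5g2 (0.33) and Ndufa7 (0.36) were called higher and Ndufa8 lower. The Gapdh signal difference between 3' and 5' probe sets, a measure of RNA integrity, was 2.33 to 2.77 in ret controls and 2.24 to 2.61 in mutants.

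**Figure D2:**
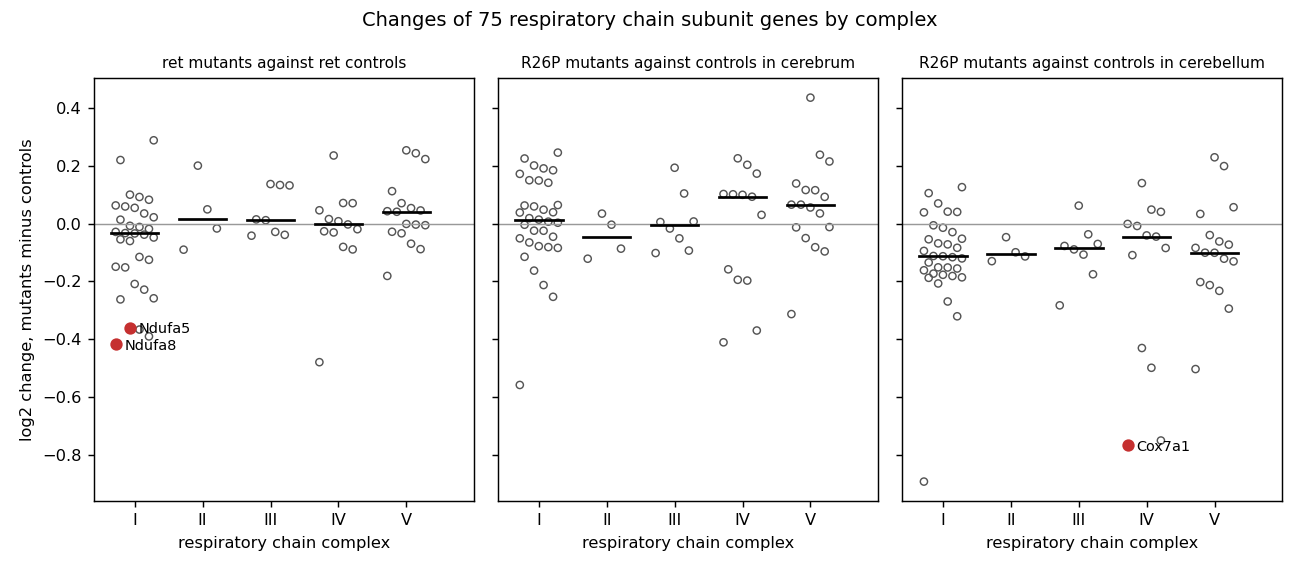
Log2 change (mutant minus control) of each tested member, by complex. The panels are ret mutants, R26P cerebrum and R26P cerebellum. Open circles are genes, black bars are medians per complex, and red points are the genes with an adjusted p under 0.05 (Ndufa8, Ndufa5 and Cox7a1). The medians lie within 0.12 of 0 in all 3 comparisons.

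In the cerebrum of R26P mutants no member passed the test at an adjusted p under 0.05, against 18.7% of all genes in limma. At an unadjusted p under 0.05 there were 5 of 75 members (4 higher), against 34.2% of all genes. The member median was 0.019 and that of all genes 0.012, with 43 members above 0 and 32 below. By complex the medians were 0.014, −0.05, −0.0058, 0.093 and 0.066 for complexes I to V. The lowest adjusted p was that of Atp5e, the epsilon subunit of the ATP synthase stalk, chosen here after its values were seen. It was 10.20, 9.99, 9.90 and 10.30 on controls and 10.81, 10.38, 10.40 and 10.55 on mutants, so that all mutants were above all controls. Its change was 0.44 (SE 0.13, limma adjusted p = 0.0540). The threshold was passed by Atp5e after each array was centred on its median (0.48), together with Ndufa10 of complex I (0.29). Atp5e also passed narrowly in limma with an intensity trend and robust prior (adjusted p = 0.0462), among genes averaging above 6 (adjusted p = 0.0489) and with probe sets averaged per gene (adjusted p = 0.0498). It did not pass in the other settings run. Without R26P control cerebrum 4, Cox5a of complex IV (0.29) was the 1 member called. Ndufa10 and Cox5a were named after their values were seen.

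In the cerebellum of R26P mutants most members lay slightly lower than in controls, and 1 of them, Cox7a1, passed the test. Its share, 1.33% of the 75 members, stood against 15.6% of all genes. The median change was −0.099 over the members and 0.0011 over all genes. Below 0 were 61 of 75 members, and 58 of the 72 with a mean above 6. The medians were −0.11 in complex I (6 of 33 above 0), −0.11 in complex II (0 of 4), −0.083 in complex III (1 of 8), −0.045 in complex IV (3 of 13) and −0.10 in complex V (4 of 17). None of the 6 core subunits of complex I was above 0. The median was −0.063 after renewed quantile normalization and −0.039 after median centring, −0.16 without control cerebellum 3 and −0.051 without control cerebellum 2. These genes move together from array to array, as described above, so the shift was not tested as a set. In the cerebellum the pericyte markers averaged 11.18 to 11.34 on controls and 7.65 to 9.03 on mutants, and the astrocyte markers 8.65 to 9.07 and 6.87 to 8.07. The 7 choroid plexus and ependyma markers averaged 10.50 to 11.77 on controls, lowest on control cerebellum 3, and 9.99 to 10.68 on mutants, and 0 of the 6 tested were called (6 below 0, median −1.11). The 9 fibroblast and meningeal markers averaged 9.43 to 10.27 and 7.96 to 8.83, and 4 of the 8 tested fell (median −1.39). Their part in the shift of the members was not tested.

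Cox7a1, the heart and muscle form of subunit VIIa, was 4.64, 5.31, 4.26 and 5.01 on the cerebellar controls and 4.23, 3.97, 3.97 and 3.97 on the mutants. The groups came close, the highest mutant (4.23) lying just below the lowest control (4.26). The change was −0.77 (SE 0.21), 1.70-fold lower (limma, adjusted p = 0.0487). The exact value of 3.97 recurs on 3 of the 4 mutant arrays, 2 of the 4 control cerebral arrays and 1 of the 4 mutant cerebral arrays. The fall is thus read against a repeated low value. That value is not the lowest, since Cox7a1 was 3.81 on R26P mutant cerebrum 3 and 3.09 on ret mutant 3. The call was lost in 7 of 8 cases when 1 array was left out, that is, for each array but control cerebellum 3, and its adjusted p was 0.1121 without the pair of unsettled region. In the cerebrum it changed by −0.19 (adjusted p = 0.216), and in ret mutants by −0.48 (adjusted p = 0.1578). The 12 smooth muscle markers averaged 9.47 to 10.09 on control cerebellum and 8.08 to 9.49 on mutants. In R26P cerebrum they averaged 9.62 to 10.18 and 8.04 to 8.86, and in the ret model 7.83 to 9.11 and 6.72 to 8.15. Their part in the Cox7a1 changes was not tested. Without R26P control cerebellum 3 there were 3 members lower, Cox7a1 (−0.95), Atp5g1 (−0.72) and Ndufc1 (−0.41), a small subunit of complex I chosen after its values were seen.

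Ndufs5, a small complex I subunit of the intermembrane face, varied widely among R26P mutants. It was 8.96, 9.0, 8.35 and 8.57 on control cerebellum and 8.36, 8.32, 7.75 and 6.88 on mutant cerebellum. In cerebrum it was 8.45, 8.33, 8.20 and 8.44 on controls and 8.33, 8.15, 7.76 and 6.94 on mutants. In both regions mutant 4 was the lowest, mutant 3 the next, and mutants 1 and 2 reached or came near the control range. The changes of −0.89 (SE 0.34, adjusted p = 0.1145) and −0.56 (SE 0.28, adjusted p = 0.2013) did not pass the limma test. In ret mutants the change was −0.05.

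The bounds on the other members were narrow. Within 0.25 log2 units of 0 lay 88.0% of the 75 members for the ret model, 92.0% for R26P cerebrum and 86.7% for R26P cerebellum, against 56.3%, 52.9% and 55.9% of all genes. The 95% interval of the change stayed inside 1.5-fold in either direction for 69, 70 and 63 of 75 members, and inside 2-fold for 75, 74 and 68. Its median width to either side of the change was 0.23, 0.22 and 0.24. The R26P comparisons share no arrays with the ret comparison. With few arrays, a member that missed the threshold is not shown to be the same in both groups, and the intervals give the sizes the data allow.

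**Figure D3:**
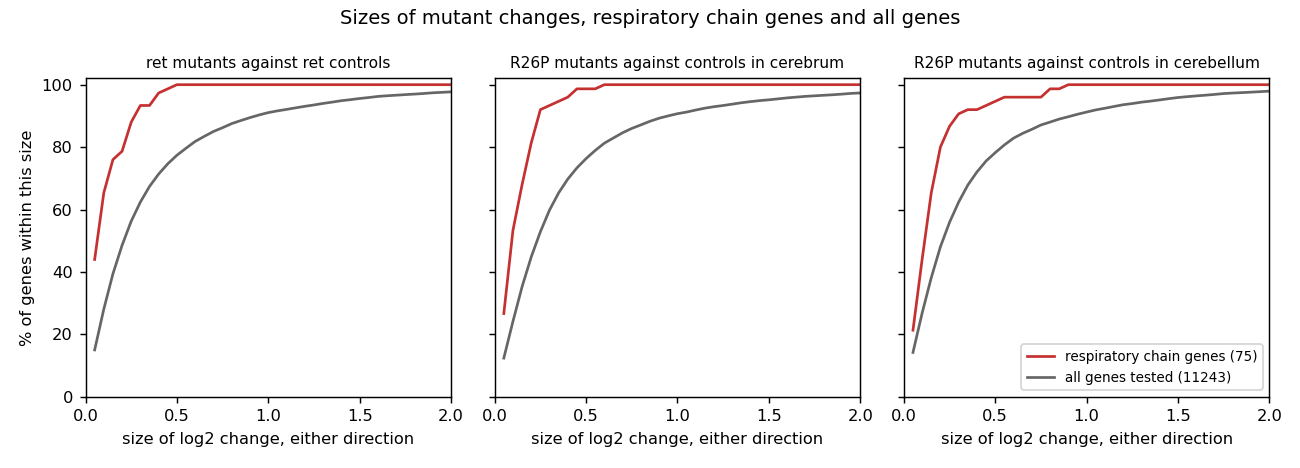
Cumulative share of genes (y axis, percent) whose log2 change in a mutant comparison is within a given size (x axis), for the 75 members (red) and all 11243 genes tested (grey). The member curves rise faster, reaching 88.0%, 92.0% and 86.7% at 0.25.

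Several subunits come in tissue forms, and 13 of the 17 such genes on the array were tested. In the mutant comparisons 0, 0 and 1 of them were called, the 1 being Cox7a1, against 16.6%, 18.7% and 15.6% of all genes. The forms found in most tissues, Cox4i1, Cox6a1, Cox6b1, Cox7a2 and Cox8a, gave signals above 9.7 on all arrays. Cox7a2, the general form of subunit VIIa, was 13.57 to 13.92 in ret mutants and 13.64 to 13.88 in ret controls, and changed by −0.03, 0.10 and −0.01 in ret, R26P cerebrum and R26P cerebellum. Cox4i1 changed by 0.02, 0.10 and −0.04, and Cox6b1 by −0.08, 0.10 and −0.04. Cox6a1 was 14.08, 13.95, 14.00 and 14.04 on R26P control cerebrum and 14.05, 14.28, 14.22 and 14.32 on mutant cerebrum, with 1 mutant inside the control range, and its change of 0.20 (SE 0.08) had an adjusted p of 0.1201 in limma.

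Cox8a, the general form of subunit VIII, was 11.15, 10.82, 10.56 and 10.63 on R26P control cerebrum and 10.24, 10.56, 10.47 and 10.41 on mutant cerebrum. All mutants lay at or below the lowest control. The change of −0.37 did not pass the limma test (adjusted p = 0.1085), nor did that of −0.50 in cerebellum (adjusted p = 0.2012). With the sex label as a covariate, Cox8a (−0.45) and Ndufs7 (−0.32), named after its values were seen, were called lower in cerebrum. Cox8b, the heart and muscle form, stayed between 2.49 and 4.88, with single high arrays in several groups. Ndufa4, now placed in complex IV but counted here under complex I, changed by 0.04, −0.0039 and −0.09, and Cox7a2l by 0.07, 0.17 and 0.14.

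The c-ring gene Atp5g1, whose transcript differs from those of Atp5g2 and Atp5g3 in the targeting sequence while the mature protein is the same, was among the members with the larger differences by region. On R26P controls it was 9.62, 9.56, 9.43 and 9.63 in cerebrum and 10.86, 10.68, 9.77 and 10.35 in cerebellum, without overlap. On R26P mutants it was 9.25, 9.69, 9.72 and 9.20 in cerebrum and 9.84, 10.28, 9.87 and 9.65 in cerebellum, where the ranges overlapped. On wild type it was 9.44, 9.20 and 9.21 in cerebrum and 9.43, 10.03 and 9.99 in cerebellum. The cerebellum was higher by 0.86 (SE 0.22, adjusted p = 0.1372), 0.45 (adjusted p = 0.8473) and 0.53 (adjusted p = 0.2356), none past the limma threshold. In ret mutants Atp5g1 changed by 0.22 (adjusted p = 0.460) and Atp5g2 by 0.24 (adjusted p = 0.168).

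**Figure D4:**
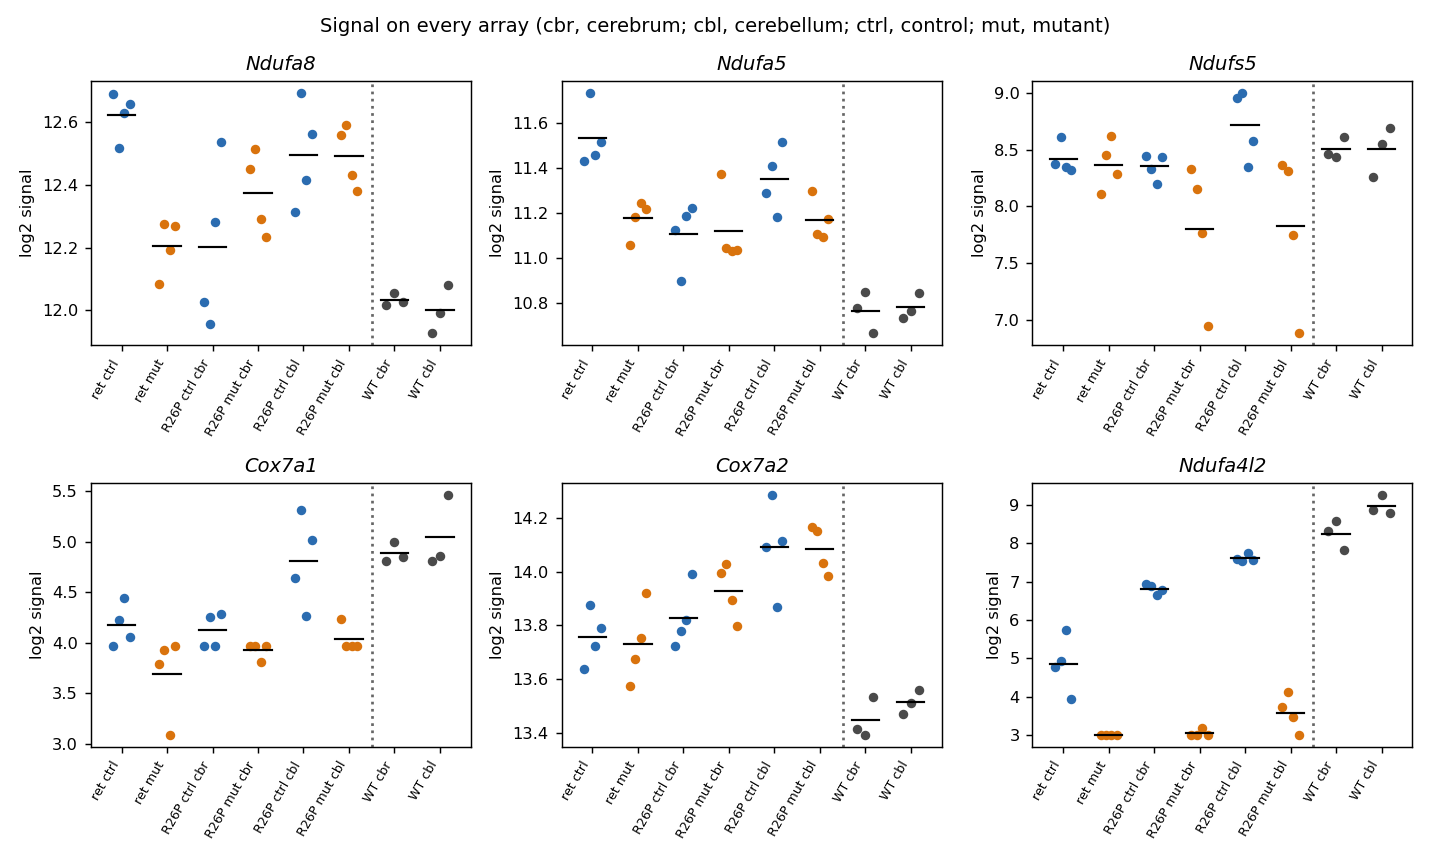
Log2 signal on each array, by group, for Ndufa8, Ndufa5, Ndufs5, Cox7a1, Cox7a2 and Ndufa4l2. Dots are arrays, bars are group means, and the dotted line separates the wild-type groups, which were normalized separately. Ndufa8 and Ndufa5 separate ret mutants from ret controls, Ndufs5 is low on 1 R26P mutant in both regions, and Ndufa4l2 is low in all mutant groups.

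A gene with several probe sets can be read more than once, and 44 tested members had 69 further probe sets. Of these, 2 rose and 1 fell in ret mutants, 2 rose in R26P cerebrum, and 2 rose and 1 fell in cerebellum, with adjustment over the 18851 probe sets tested. Over all of these, 14.6%, 15.2% and 12.7% were called. Ndufa7, an accessory subunit of complex I chosen here after its values were seen, had 5 probe sets. On the brightest it was 11.86, 11.93, 11.89 and 11.97 on ret controls and 11.997, 12.36, 12.35 and 12.11 on ret mutants, all mutants being higher. This change of 0.29 had an adjusted p of 0.0816 in limma. On the fourth in brightness it was 8.08, 7.72, 8.24 and 8.08 in R26P control cerebrum and 9.09, 8.90, 8.36 and 8.80 in mutant cerebrum, again all higher. The change was 0.76 there (adjusted p = 0.0260 over all probe sets), 0.63 in cerebellum (adjusted p = 0.0225) and 0.33 in ret mutants (adjusted p = 0.0412). This probe set carries a suffix that marks possible matches to other genes, which the brightest and the dimmest do not.

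The dimmest Ndufa7 probe set gave 0.49 and 0.42 in the R26P regions, both called, and the brightest gave 0.15 and 0.11, neither called. All 5 probe sets were above 0 in all 3 mutant comparisons. The size of the difference thus depends on which probes are read, and the brightest, by which the gene was taken here, gave the smaller one in R26P mutants. Other members whose brightest probe set was not called had another one that was, namely Ndufs7 (−0.46) and Ndufs8 (0.30) in ret mutants and Ndufab1 (−0.63) in R26P cerebellum, also chosen after their values were seen. Ndufs7 and Ndufs8 are core subunits that hold iron-sulfur clusters, and Ndufab1 is the mitochondrial acyl carrier protein.

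Ndufa4l2, a paralog of Ndufa4 that hypoxia is known to induce and that marks brain pericytes, was left out of the members and kept as a pericyte marker. It was 4.78, 4.94, 5.74 and 3.95 on ret controls and 3.01 on all 4 ret mutants. In R26P cerebrum it was 6.93, 6.89, 6.65 and 6.78 on controls and 3.01, 3.01, 3.20 and 3.01 on mutants. In R26P cerebellum it was 7.59, 7.53, 7.74 and 7.56 on controls and 3.72, 4.13, 3.47 and 3.01 on mutants. No mutant array reached a control array. The changes were −1.84 (SE 0.33, adjusted p = 0.0092), −3.75 (SE 0.09, adjusted p = 8.95e-07) and −4.02 (SE 0.22, adjusted p = 6.07e-05) in limma. The value of 3.01 repeats on 4, 3 and 1 of the 4 arrays of the mutant groups, so these falls too are read against a repeated low value. Without the 3 ret mutants with Gh above 8, the adjusted p of the ret change was 0.1992. Ndufa4 itself did not pass the test in any of the 3 comparisons.

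Regions were compared within each genotype, first without use of the pairing of same-numbered arrays. In wild type, 0 members passed an adjusted p under 0.05, against 2.12% of all genes. At an unadjusted p under 0.05 there were 9 of 75 (7 higher in cerebellum), against 15.9% of all genes in limma. The member median was 0.051, and that of all genes −0.04. Cox6b2 had the largest difference, 1.27 (SE 0.43, adjusted p = 0.2320), from 3.67, 3.56 and 3.41 in cerebrum to 4.22, 5.83 and 4.41 in cerebellum. All 3 cerebellar arrays were the higher ones. Cox6b2 passed the filter only through cerebellar arrays, these among them, so its values are no support for a regional difference. It is also among the 7 members counted as higher.

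In R26P controls nearly all members lay higher in cerebellum. The median difference was 0.24, against 0.026 for all genes, and 73 of 75 were above 0. It was similar by complex, at 0.23, 0.24, 0.23, 0.23 and 0.24 for complexes I to V. The adjusted test called 0 members, against 1.17% of all genes, and 28 had an unadjusted p under 0.05, all higher, against 14.1% of all genes (lowest adjusted p 0.1025 in limma). Without control cerebellum 3, Atp5g1 (1.07), Cox6b2 (1.22), and Atp5md (0.49) and Atp5mpl (0.46), small membrane subunits of ATP synthase named after their values were seen, were called. Of these, Cox6b2, also among the 28, passed the filter only through cerebellar arrays, so its call is no support for a regional difference. In the mutants the median was 0.11, against 0.016 for all genes, and 69 of 75 were above 0. There the test called 0 members against 0% of all genes, and 7 members had an unadjusted p under 0.05, all higher, against 5.52% of all genes. With the replicate number as a block, which uses the pairs, 0 members were again called in each genotype. Unadjusted p-values under 0.05 then numbered 6 in wild type (5 higher) against 21% of all genes, 36 in R26P controls (all higher) against 23.1%, and 22 in R26P mutants (all higher) against 14.2%. The lowest adjusted p of a member was 0.0557 in R26P controls with the block.

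The size of the regional difference varied by pair. Over the 72 members above 6, cerebellum minus cerebrum averaged 0.29, 0.45, 0.05 and 0.13 in R26P control pairs 1 to 4, and 71, 72, 48 and 61 members were higher in cerebellum. In mutant pairs the averages were 0.15, 0.11, 0.05 and 0.10, with 66, 58, 54 and 62 members higher. In wild-type pairs they were 0.02, 0.09 and 0.07, with 45, 57 and 45 higher. R26P control pairs 1 and 2 stood above the other 9 pairs. In these pairs the medians of all genes were between −0.054 and 0.067. Over genes with a mean signal between the members' quartiles they were between −0.071 and 0.096, and 74.0% and 70.1% of these genes were higher in cerebellum in mutant pairs 1 and 4. The pericyte markers differed by 0.54 to 0.65 in the control pairs, 0.34 to 1.29 in the mutant pairs and 0.38 to 0.58 in wild type. The markers of choroid plexus and ependyma, the fluid-making lining of the ventricles, were higher in cerebellum by 1.98, 0.96, 0.62 and 0.71 in control pairs 1 to 4. They were higher by 1.98, 1.80, 0.43 and 1.11 in mutant pairs 1 to 4 and by 0.51, 0.95 and 1.18 in wild-type pairs. Fibroblast and meningeal markers were higher by 0.36, 0.77, 0.77 and 0.84 in control pairs 1 to 4, lowest in pair 1. For cerebellar granule cell markers the values were 0.61, 0.44, 0.59 and 0.86, highest in pair 4. These lists are given after their values were seen. The Gapdh 3' to 5' difference moved by −0.26 to 0.06, −0.20 to 0.06 and −0.23 to −0.04. Their part in the regional difference of the members was not tested.

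**Figure D5:**
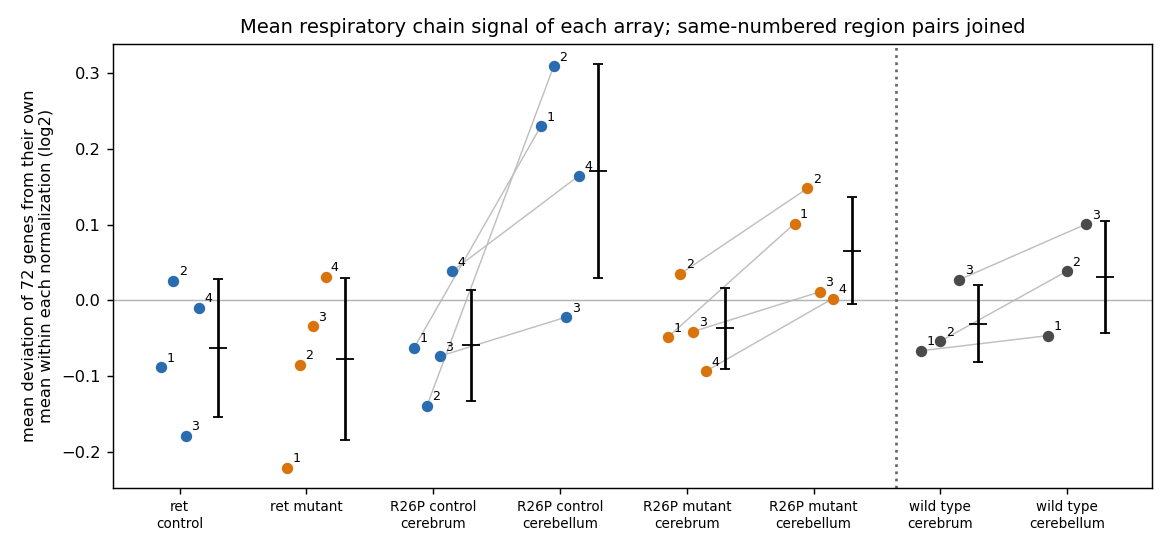
Mean log2 deviation of the 72 members above 6 on each array, taken within each normalization, by group. Numbers are replicates, grey lines join the regions of the same number, and bars are mean ± SD. R26P control cerebellum has the highest mean (0.17 ± 0.14, SD, n = 4), with control cerebellum 3 at −0.02.

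On the same scale the group means were −0.06 ± 0.07 (SD, n = 4) in R26P control cerebrum, 0.17 ± 0.14 (n = 4) in control cerebellum, −0.04 ± 0.05 (n = 4) in mutant cerebrum and 0.07 ± 0.07 (n = 4) in mutant cerebellum. They were −0.06 ± 0.09 (n = 4) in ret controls and −0.08 ± 0.11 (n = 4) in ret mutants. The ret groups overlapped over nearly their whole ranges, from −0.18 to 0.03 in controls and from −0.22 to 0.03 in mutants. The mutant cerebellum, at 0.0023 to 0.15, lay inside the range of control cerebellum, at −0.02 to 0.31.

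The R26P effect was then tested for a difference between regions, and the ret effect for a difference from the R26P effect in cerebrum. These tests reuse the arrays of the comparisons above. Between regions 0 members were called, against 0.116% of all genes, and 2 had an unadjusted p under 0.05, against 2.75% of all genes in limma. This fit did not use the pairs between regions. With the replicate block, which does, 0 members were called, against 29 of the 11243 genes. Of the 75 members 68 had a lower change in cerebellum than in cerebrum, with a median of −0.12 and −0.0085 for all genes. Between models 0 members were called, against 3.35% of all genes, and 7 had an unadjusted p under 0.05 (1 higher), against 21.8% of all genes. The medians were −0.05 for the members and 0.0073 for all genes.

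For Ndufa8 the difference between models was −0.59 (SE 0.16, 95% interval −0.94 to −0.24, limma adjusted p = 0.0609). In R26P cerebrum it was 12.03, 11.96, 12.28 and 12.54 on controls and 12.45, 12.51, 12.29 and 12.23 on mutants, with overlapping ranges and a change of 0.17 (adjusted p = 0.422). In R26P cerebellum the change was −0.0062. The difference between models was called after median centring, with an intensity trend and robust prior, and without R26P control cerebrum 4 or mutant cerebrum 4. It is therefore not settled at this number of arrays. For Ndufa4l2 the difference was 1.92 (SE 0.35, adjusted p = 0.0131). Since 4 of 4 ret mutant and 3 of 4 R26P mutant cerebral arrays lay at the repeated low value, it is set by the control means (4.85 and 6.81) and does not compare the falls.

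Genes around the chain were taken by list. Of 46 assembly factors tested, 3 fell and 0 rose in ret mutants, 5 rose and 0 fell in R26P cerebrum, and 2 rose and 0 fell in cerebellum, all smaller shares than the 16.6%, 18.7% and 15.6% of all genes called in these comparisons. In R26P cerebrum 37 of the 46 were above 0, against 51.4% of all genes. Those lower in ret mutants were Ndufaf2 (−0.45, adjusted p = 0.0230) and Ndufaf7 (−0.42, adjusted p = 0.0266), which serve complex I, and Uqcc2 (−0.36, adjusted p = 0.0114), which serves complex III. Uqcc2 was 10.79, 10.82, 10.67 and 10.74 on ret controls and 10.27, 10.45, 10.42 and 10.43 on ret mutants, without overlap, and was called in all 8 fits that left out 1 array. Its change was 0.24 in R26P cerebrum (adjusted p = 0.1690), and the difference between models, −0.60 (SE 0.13), passed the limma test (adjusted p = 0.0266). Ndufaf2 and Ndufaf7 were called in 4 and 2 of the 8 such fits.

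Among the factors higher in R26P cerebrum were Sdhaf4 (0.54, adjusted p = 0.0086), which helps complex II form, and Uqcc3 (0.45, adjusted p = 0.0144) and Bcs1l (0.44, adjusted p = 0.0142), which act on complex III. All 3 were called in each of the 8 fits that left out 1 array. Sdhaf4 was 9.09, 8.97, 9.34 and 9.20 on controls and 9.79, 9.74, 9.62 and 9.62 on mutants, all higher. The other two called were Cox19 and Surf1 of complex IV assembly, named after their values were seen. In cerebellum Atpaf1 (0.44, adjusted p = 0.0264), a chaperone of ATP synthase, and Uqcc3 (0.35, adjusted p = 0.0386) rose, called in 4 and 1 of the 8 such fits.

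Upstream of the chain, 1 of 17 genes of pyruvate and citric acid cycle metabolism was called in each mutant comparison, against 16.6%, 18.7% and 15.6% of all genes, and it was Pdha1 in all 3. Pdha1 encodes the catalytic alpha subunit of pyruvate dehydrogenase, which feeds acetyl groups to the cycle. It was 12.22, 12.40, 12.38 and 12.36 on ret controls and 11.79, 11.88, 11.87 and 12.20 on ret mutants (−0.40, adjusted p = 0.0314). In R26P cerebrum it was 12.39, 12.56, 12.32 and 12.42 on controls and 11.66, 11.93, 12.05 and 11.89 on mutants (−0.54, adjusted p = 0.0104). In R26P cerebellum it was 12.82, 12.89, 12.55 and 12.47 on controls and 12.08, 12.32, 12.19 and 12.03 on mutants (−0.53, adjusted p = 0.0245). All mutant arrays were below all their controls in all 3. Leaving out 1 array at a time kept the call in 2 of 8 fits in ret, 8 of 8 in cerebrum and 3 of 8 in cerebellum, with adjusted p-values up to 0.0852, 0.0290 and 0.0647 and changes from −0.60 to −0.36.

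Of 17 regulators of mitochondrial biogenesis, 1 was called lower in each comparison, again below the share of all genes. In R26P mutants it was Ppargc1b (PGC-1 beta), a coactivator of mitochondrial genes. It was 6.63, 6.64, 6.51 and 6.59 on control cerebellum and 4.94, 4.90, 4.38 and 4.27 on mutants, without overlap. The change was −1.97 (SE 0.16), 3.92-fold lower (limma, adjusted p = 3.62e-04). In cerebrum it was 5.32, 5.80, 6.23 and 5.59 on controls and 4.94, 4.24, 4.94 and 4.27 on mutants (−1.14, adjusted p = 0.0179), and in ret mutants the change was −0.69 (adjusted p = 0.1196). Both R26P calls held in all 8 fits that left out 1 array. The value of 4.94 repeats on 3 ret mutant arrays, 2 mutant cerebral and 1 mutant cerebellar array. Part of the fall is thus read against a repeated low value. That value is not the lowest, since mutant arrays reached 4.24 in cerebrum and 4.27 in cerebellum. In ret mutants the regulator called was Polg, the mitochondrial DNA polymerase (−0.29, adjusted p = 0.0473), in none of the 8 fits that left out 1 array.

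Among 19 electron carriers and their enzymes 1 rose and 1 fell in ret mutants, Coq9 of coenzyme Q synthesis (0.34, adjusted p = 0.0426) and Gpd2, the mitochondrial glycerol phosphate dehydrogenase (−0.41, adjusted p = 0.0250), called in 1 and 4 of the 8 such fits. None was called in either region of R26P mutants. Of all genes, 16.6% (ret), 18.7% (cerebrum of R26P) and 15.6% (its cerebellum) were called, which is the background for these genes and for the carriers that follow. Of 6 nucleotide and phosphate carriers and porins none was called in the 3 comparisons. Of the 13 subunits encoded by mitochondrial DNA, ND5 of complex I was the 1 measured, and it changed by −0.15 (adjusted p = 0.4504), −0.20 (adjusted p = 0.2528) and −0.11 (adjusted p = 0.2873) in ret, R26P cerebrum and R26P cerebellum in limma. Pericyte and astrocyte markers fell in the same comparisons, as given above, and their part in the changes of Pdha1 and Ppargc1b was not tested.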

How the data were processed

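Per the labels, total RNA was isolated on silica columns, treated with DNase, and about 100 ng was amplified by the small-sample Affymetrix protocol and labelled with biotin. The authors deposited log2 signals made with GCRMA 2.6.0 in R 2.4.1, per the submitters' processing notes. They were used as deposited. Of 45101 probe sets, 34958 were paired with 1 gene, 932 with several and 9211 with none. Members and all lists, including those for assembly factors, electron carriers, pyruvate and citric acid cycle, biogenesis regulators, carriers and porins and mitochondrially encoded subunits, were chosen with earlier results of these data known.

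Tests used lmFit and eBayes (default prior) of limma 3.58.1, run in R 4.3.3, two-sided, on the arrays compared alone, with Benjamini-Hochberg adjustment over 11243 genes, and were tested on simulated data. The number of arrays limits precision. Named genes are the isoform families, up to 10 members each way per mutant comparison and up to 4 each way per other comparison past an adjusted p of 0.05, the brightest and dimmest tested member of each complex, up to 3 genes per pathway list and mutant comparison, untested members and Ndufa4l2. Others are marked as chosen after their values were seen. After removal of group means, same-numbered regions correlated at 0.344 to 0.840 and each array correlated best with its own number, so the labels' numbers were read as pairs between regions, and not between controls and mutants. The first region tests and the first test of the R26P effect between regions do not use the pairs. Those with the replicate block do. Alternatives were other filters, probe-set rules, normalizations and priors, covariates, the replicate block and leaving out arrays. Promoter windows came from RefSeq.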

Additional observations from a re-analysis of the deposited data

Results flagged for a closer look

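In groups of 4 arrays, an isoform or named member was singled out where 1 array stood apart from the others by more than 0.829 of the group's range. This held for 17 of the 149 groups examined. The cut-off gives about 1 in 20 for independent, normally spread values. These groups share arrays and some hold tied values, so 17 of 149 cannot be set against that share. Values are log2 signals, with the nearest other array of the group in parentheses.

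Among ret mutants, Atp5g1 was 10.25 on mutant 4 (9.56) and Cox6b1 was 13.61 on mutant 1 (13.84). Among R26P controls, Cox7a2l was 13.84 on cerebrum 2 (14.03) and Cox8b was 4.88 on cerebellum 1 (3.19). R26P mutant cerebrum gave 9 of the 17. On replicate 2, Atp5g2 was 11.62 (11.13), Cox4i1 14.54 (14.36) and Cox5b 14.87 (14.76). On replicate 1, Ndufa5 was 11.37 (11.04) and Sdha 12.71 (13.04). On replicate 3, Cox7a1 was 3.81 (3.96) and Ndufa4l2 3.20 (3.01). On replicate 4, Cox6b2 was 2.43 (2.67) and Cox7a2l 14.30 (14.13). In R26P mutant cerebellum, Cox6b2 was 3.61 (2.78) and Cox8b 4.50 (3.14) on replicate 2, Cox7a1 was 4.23 (3.97) on replicate 1, and Cox4i2 was 2.17 (2.16) on replicate 4. Cox4i2, Cox6b2, Cox7a1, Cox8b and Ndufa4l2 are dim probe sets.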

How the results depend on the processing

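The median change of the members moved by less than 0.0873 under each alternative run. This margin is the pooled SD between replicates of the mean over members above 6. It is wider than the medians of ret, R26P cerebrum, wild type and the difference between models, so it does not show that their direction was kept. Leaving out 1 array gave −0.0396 to 0.0361 in ret, −0.0064 to 0.06 in R26P cerebrum and −0.0935 to 0.0343 between models. In the other comparisons the median kept its sign when 1 array was left out. Counts of members called were small and moved. In ret mutants (2 called) there were 6 after renewed quantile normalization, 4 after median centring, 1 with the Gapdh covariate, 1 without the mutants with Gh above 8 and 1 to 4 without 1 array. In R26P cerebrum (0 called) there were 1 with a mean above 6, 2 with probe sets averaged per gene, 1 with an intensity trend, 2 after median centring, 2 with sex as a covariate and 0 to 1 without 1 array. In R26P cerebellum (1 called) there were 0 without the filter, with a mean above 6, with all probe sets, after renewed quantile normalization, with sex as a covariate or without the pair of number 3 (added after seeing the data), 2 with the mean of probe sets and 0 to 3 without 1 array. Between regions of R26P controls there were 0 to 4 without 1 array, with Cox6b2 among the 4. Between models (0 called) there was 1 with an intensity trend, 1 after median centring and 0 to 1 without 1 array. Between controls and mutants the numbers share no more than a label, and with the replicate block ret and R26P cerebellum had 0 members called, and all-gene calls in ret went from 1870 to 987. In the region comparisons the block changed no call of a member, while all-gene calls in R26P controls went from 132 to 475. With no filter, all-gene calls went to 1229 in ret, 1390 in R26P cerebrum and 1081 in cerebellum. Ndufa8 had an adjusted p of 0.0622 with the replicate block, and Ndufa5 one of 0.0783. The causes were not tested. Xist as a covariate, added after seeing the data, left 2 in ret. Signals near the lowest value limit Cox7a1, Cox6b2, Cox8b and Ndufa4l2.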
